A study of Mus musculus with 7 samples.

Results

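The endothelin system of the infarcted mouse heart was examined at the RNA level through 6 genes of 56980 in the expression table, taken by name. They were the ligand genes Edn1 and Edn3, the converting enzyme genes Ece1 and Ece2, and the receptor genes Ednra and Ednrb. Myocardial tissue was taken from 7 wild-type male C57BL/6J mice, an inbred strain of laboratory mouse bought at an age of 8 weeks. In 3 of them the left coronary artery had been ligated 4 days earlier to induce myocardial infarction (MI mice, replicates 1 to 3), and the other 4 had gone through the same surgery without ligation (sham-operated mice, replicates 1 to 4). Each mouse gave 1 library of total RNA. The study speaks of ischemic tissue in the MI mice, but the sources used here do not separate infarct from border zone, nor say when the sham-operated hearts were collected.

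Endothelins are short peptides that constrict blood vessels and are made mainly by endothelial cells. They are cut from a long precursor, first by furin-type proteases into big endothelin and then by an endothelin-converting enzyme into the active peptide. Endothelin receptor A, on smooth muscle cells, cardiomyocytes and fibroblasts, raises calcium through Gq proteins. Endothelin receptor B, on endothelial cells, leads to release of nitric oxide and prostacyclin and clears the peptide from the circulation, and on some smooth muscle it also constricts. In the heart endothelin-1 is also known as a growth signal for cardiomyocytes and an activator of fibroblasts.

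The stretch that encodes the active peptide is shown for both ligands, because it is the part of the precursor that meets the receptors. It lies in exon 2 of each gene, at chr13:42303649-42303711 for Edn1 and at chr2:174761749-174761811 for Edn3, both on the plus strand of GRCm38. Capitals mark the codons of the 4 cysteines that close the disulfide bridges of the peptide.
Edn1: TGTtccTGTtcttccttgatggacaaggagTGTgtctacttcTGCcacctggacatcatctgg
Edn3: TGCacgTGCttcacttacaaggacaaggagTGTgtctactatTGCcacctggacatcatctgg
The sequences share 50 of 63 bases (79.4%), and 15 of 21 codons specify the same residue. Both stretches were located by the cysteine spacing of a mature endothelin with a tryptophan at its end. Those codons therefore stand at the same places by construction, and they count among the 15.

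The expression values were FPKM, fragments per kilobase of transcript divided by the size of the library. Fragment numbers given with them were recovered from the steps in which the FPKM values move. The libraries held 19977719 to 23473543 fragments in the sham-operated mice and 21781007 to 23610867 in the MI mice, so depth differed little between groups. The cardiomyocyte markers of the tissue check were abundant in all hearts. Myh6, the main myosin heavy chain of the adult mouse ventricle, had an FPKM of 3991 ± 136 (SD, n = 4) in the sham-operated mice and 2721 ± 1122 (SD, n = 3) in the MI mice, and Tnnt2, cardiac troponin T, 591.8 ± 44.5 and 512.1 ± 91.8. The MI mice were not alike. Mitochondrial genes held 26.5% to 27.4% of the fragments in the sham-operated mice, 13.6% in MI replicate 1, 28.2% in MI replicate 2 and 14.9% in MI replicate 3. The summed FPKM of 10 fibroblast markers was 126.2 to 148.8 in the sham-operated mice, 2505 and 1936 in MI replicates 1 and 3, and 236.5 in MI replicate 2. The sources used here give no infarct size or check of the ligation for a single mouse, so what tissue MI replicate 2 represents is not known, and it enters every MI mean and count as labelled. Results are therefore also given without it, a choice made after its values were seen.

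All 6 endothelin genes were detected in both groups, and the mean FPKM of each was higher in the MI mice. Of all genes tested, 73.0% had a log2 difference above 0. Edn1 showed the largest difference of the 4 genes with enough signal to test, and its level in MI replicates 1 and 3 was several times that of any sham-operated mouse. The receptor genes and Ece1 differed by less than 1.5 times in the mean. Those 4 genes, Edn1, Ece1, Ednra and Ednrb, reached an FPKM of 1 in 3 or more of the 7 mice, as 11431 genes did, and were tested with limma on log2(FPKM + 1). At an adjusted p of 0.05 (Benjamini-Hochberg over all genes tested) limma called 0 of the 4, against 0.0262% of all genes tested (0.0175% higher and 0.00875% lower). At an unadjusted p under 0.05, 3 of the 4 were higher in the MI mice, against 29.5% of all genes tested, and the voom alternative also gave 0 and 3. Under median log-ratio scaling and under quantile normalization only Edn1 had an unadjusted p under 0.05, so that count was 1. It was also 1, again Edn1, without sham replicate 1 or 4, without MI replicate 1 or 3, and with the replicate number as a block. All MI values lay above all sham values for 3 of the 6 genes, 2 of them among the 4 tested, against 16.1% of all genes tested. Without MI replicate 2 this held for all 6 genes, and for 61.9% of all genes tested. The median log2 difference of the 4 tested genes was 0.37, and that of all genes tested was 0.21.

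**Figure D1:**
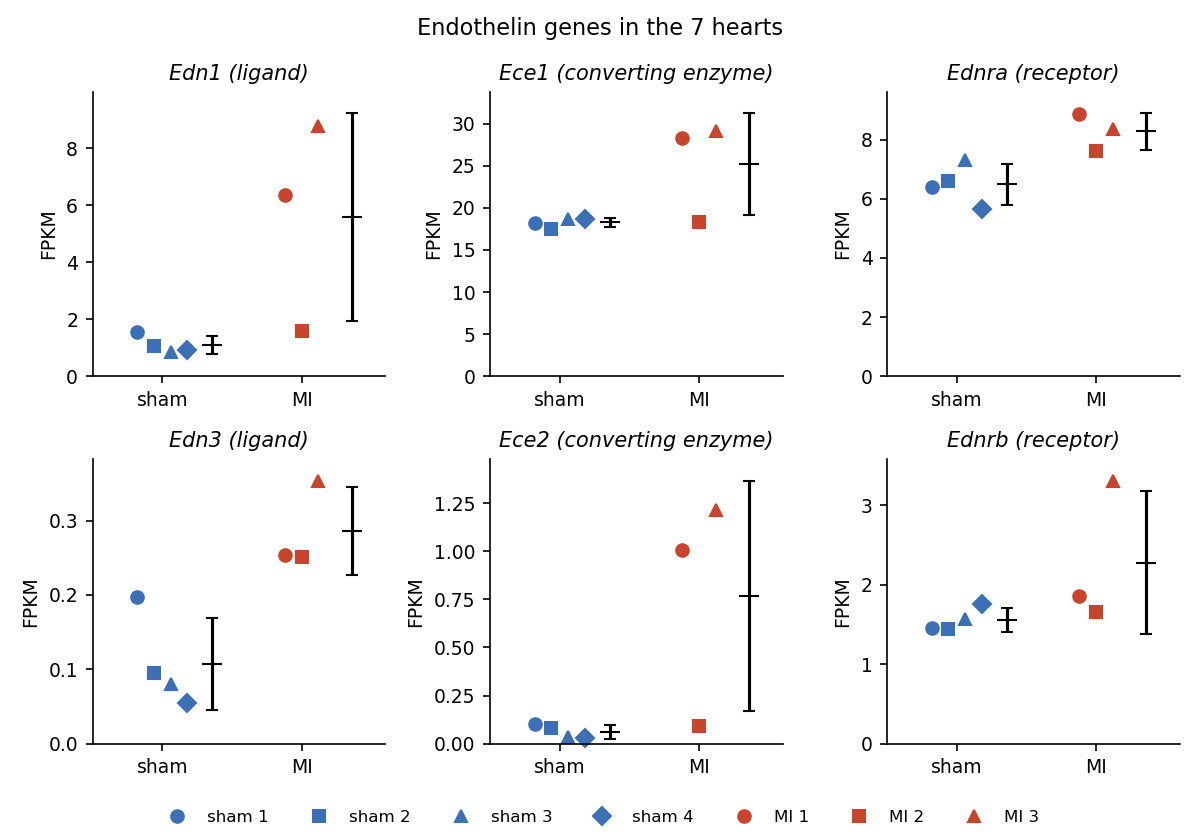
FPKM (vertical axes, from 0) of the 6 endothelin genes in each of the 4 sham-operated (blue) and 3 MI mice (red), with black bars for the mean and SD of each group. Edn1, Edn3 and Ednra have all MI hearts above all sham hearts, while the square for MI replicate 2 lies close to the sham values for Edn1, Ece1, Ece2 and Ednrb.

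Edn1 encodes the precursor of endothelin-1, the main endothelin of the vasculature, and lies at chr13:42301476-42307990 on the plus strand (GRCm38). Its FPKM was 1.54, 1.06, 0.856 and 0.913 in sham replicates 1 to 4 and 6.37, 1.59 and 8.77 in MI replicates 1 to 3. These values rested on 39 to 74 fragments in a sham-operated mouse and on 297, 77 and 443 in the MI mice. MI replicates 1 and 3 stood far above every sham-operated heart, whereas MI replicate 2 was only just above the highest of them, so the groups did not overlap but nearly touched. The mean was 1.09 ± 0.312 (SD, n = 4) in the sham-operated mice and 5.58 ± 3.66 (SD, n = 3) in the MI mice, a ratio of 5.11. On the log2(FPKM + 1) scale, which understates the change of a low gene, the difference was 1.46 with a standard error of 0.42. Its unadjusted p in limma was 0.00958 and its Benjamini-Hochberg adjusted p was 0.108. An exact two-sided permutation test of the 7 values gave p = 0.0571, the smallest that 3 against 4 mice allow.

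Among all genes tested, 2.26% had a larger increase than Edn1. Relative to the median gene, its difference was 1.25. Without MI replicate 2 the ratio was 6.94 and the log2 difference 2.03, with an adjusted p of 5.04e-05 in limma. MI replicate 2 alone held 1.46 times the sham mean. In the same fit without that heart 57.0% of all genes tested were called higher and 14.7% lower, so most genes were called there.

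Edn3 encodes the precursor of endothelin-3, which binds receptor B far more tightly than receptor A and is best known for its part in neural crest development, and lies at chr2:174760619-174784042 on the plus strand. Its FPKM was 0.197, 0.0945, 0.0806 and 0.0552 in sham replicates 1 to 4 and 0.253, 0.251 and 0.354 in MI replicates 1 to 3. All 3 MI hearts were above all 4 sham hearts, and MI replicate 2 was level with MI replicate 1, unlike for Edn1. The numbers behind these values were small, 28, 13, 12 and 7 fragments in the sham-operated mice and 35, 36 and 53 in the MI mice. The mean was 0.107 ± 0.0622 (SD, n = 4) against 0.286 ± 0.0588 (SD, n = 3), a ratio of 2.68, and 2.35 for MI replicate 2 alone. The gene did not reach an FPKM of 1 in any mouse and was not tested with the others. The exact permutation test gave p = 0.0571, and with a filter lowered to an FPKM of 0.1 the adjusted p in limma was 0.129. The third ligand gene, Edn2, was at 0 in 5 hearts, with 3 fragments in sham replicate 4 and 1 fragment in MI replicate 3.

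Edn1 outweighed Edn3 in every heart. The ratio of their FPKM values was 7.84, 11.2, 10.6 and 16.5 in the sham-operated mice and 25.2, 6.34 and 24.8 in MI replicates 1 to 3. MI replicates 1 and 3 exceeded all sham-operated mice in this ratio, and MI replicate 2 was below them all.

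Ece1 encodes the converting enzyme that releases endothelin-1 from big endothelin in most tissues, and lies at chr4:137862237-137965229 on the plus strand. Its FPKM was 18.2, 17.6, 18.7 and 18.7 in sham replicates 1 to 4 and 28.3, 18.3 and 29.2 in MI replicates 1 to 3. The sham-operated hearts were within a narrow range, MI replicate 2 fell inside that range, and MI replicates 1 and 3 were well above it. The mean was 18.3 ± 0.526 (SD, n = 4) and 25.2 ± 6.03 (SD, n = 3), a ratio of 1.38. The log2 difference was 0.42 with a standard error of 0.16 and an adjusted p of 0.115 in limma, and 0.21 relative to the median gene. The exact permutation test gave p = 0.171. Ece1 was the most abundant of the 6 genes, above 86.9% of all genes tested in the mean of the sham-operated mice.

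Ece2, at chr16:20629828-20646485 on the plus strand, encodes a related metalloprotease that works in acidic compartments inside the cell and is best known from nervous tissue. Its FPKM was 0.102, 0.0810, 0.0346 and 0.0271 in sham replicates 1 to 4 and 1.01, 0.0896 and 1.21 in MI replicates 1 to 3. MI replicates 1 and 3 stood far above every sham-operated heart, on 162 and 212 fragments against 4 to 17, while MI replicate 2, with 15 fragments, lay among the sham-operated mice. The ratio of means, 0.770 ± 0.598 (SD, n = 3) over 0.0613 ± 0.0364 (SD, n = 4), was 12.6. The exact permutation test gave p = 0.114, and the gene reached an FPKM of 1 in 2 mice only, below the filter. In GENCODE M21 the annotated exons of Ece2 share 2937 of their 5110 bases with those of Gm49333 on the same strand, so fragments could be assigned to either gene and the level of Ece2 is uncertain. Gm49333 itself had an FPKM of 0, 0.103, 0.276 and 0.357 in the sham-operated mice and 0.471, 0 and 0 in the MI mice. The sum of both genes would still be highest in MI replicates 1 and 3.

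Ednra encodes endothelin receptor A and lies at chr8:77663031-77724464 on the minus strand. Its FPKM was 6.40, 6.62, 7.33 and 5.65 in sham replicates 1 to 4 and 8.87, 7.64 and 8.36 in MI replicates 1 to 3. All MI hearts were above all sham hearts, with a narrow gap between sham replicate 3 and MI replicate 2. The mean was 6.50 ± 0.691 (SD, n = 4) and 8.29 ± 0.619 (SD, n = 3), a ratio of 1.28, on 674 to 1178 fragments per mouse. The log2 difference was 0.31 with a standard error of 0.11 and an adjusted p of 0.108 in limma, and the exact permutation test gave p = 0.0571. Relative to the median gene the difference was 0.10.

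Ednrb encodes endothelin receptor B and lies at chr14:103814625-103844402 on the minus strand. Its FPKM was 1.45, 1.45, 1.57 and 1.76 in sham replicates 1 to 4 and 1.86, 1.66 and 3.31 in MI replicates 1 to 3. A single heart, MI replicate 3, stood apart, and MI replicate 2 was below sham replicate 4. The mean was 1.56 ± 0.149 (SD, n = 4) and 2.28 ± 0.901 (SD, n = 3), a ratio of 1.46 that became 1.13 without MI replicate 3. The log2 difference was 0.33 with a standard error of 0.17 and an adjusted p of 0.177 in limma. Without MI replicate 3 it was 0.11, which was below the median gene by 0.057 (a relative difference of -0.057).

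The scaling of the libraries mattered for the receptor genes and for Ece1. Under median log-ratio scaling the log2 difference was 0.08 for Ednra and 0.16 for Ednrb, and under quantile normalization it was 0.03 and 0.02. Ece1, at 0.42 as deposited, was at 0.17 and 0.19 in these fits. Rescaling to TPM moved them the other way, to 0.52 for Ednra, 0.56 for Ednrb and 0.62 for Ece1, with the median gene at 0.42. The median gene was at 0.02 under median log-ratio scaling and -0.08 under quantile normalization, against 0.21 with the FPKM as deposited. The differences of all 4 tested endothelin genes stayed above 0 under all 3 scalings.

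**Figure D2:**
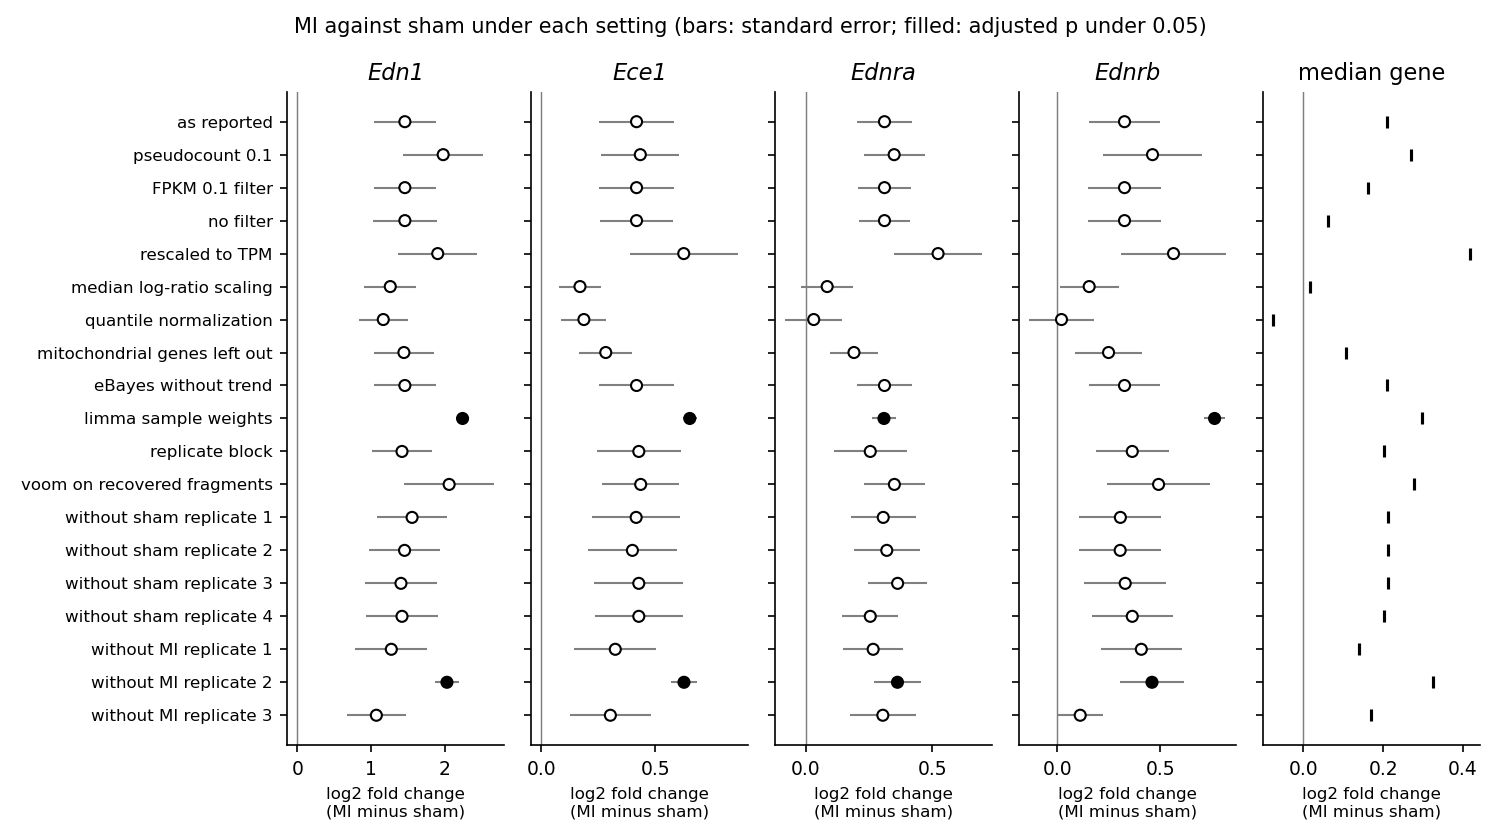
Log2 difference between MI and sham-operated mice (horizontal axes) for Edn1, Ece1, Ednra and Ednrb under each way of processing (rows), with bars for the standard error and filled circles for an adjusted p under 0.05 in limma. The right panel gives the median of all genes in the same fit. Filled circles appear only with sample weights and without MI replicate 2.

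In the sham-operated mice the genes ranked Ece1, Ednra, Ednrb, Edn1, Edn3 and Ece2 by mean FPKM. Ece1 was above Ednra and Ednra above Ednrb in every heart. Ednrb exceeded Edn1 in 3 of 4 hearts and their ranges overlapped, as did those of Edn3 and Ece2. In the MI mice the order was Ece1, Ednra, Edn1, Ednrb, Ece2 and Edn3, and Edn1 was above Ednrb in 2 of 3 hearts. FPKM is a level per length, but the length behind the deposited values was not the GENCODE M21 exon length for every gene. It was 2139 bases in both for Edn1, yet 9343 against 4266 for Ednrb and 7395 against 5110 for Ece2, so levels of different genes are compared only roughly.

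The FPKM ratio of 2 genes in the same heart is free of any factor common to its library, whereas their difference on the log2(FPKM + 1) scale is only partly so. Receptor A exceeded receptor B in every heart, and Ednrb made up 18.5%, 17.9%, 17.7% and 23.8% of the FPKM of both receptor genes in sham replicates 1 to 4 and 17.4%, 17.9% and 28.4% in MI replicates 1 to 3. The balance of the receptors therefore overlapped between groups, with MI replicate 3 highest. On the log2(FPKM + 1) scale, Ednrb minus Ednra was -1.55 ± 0.192 (SD, n = 4) and -1.53 ± 0.363 (SD, n = 3), and the exact permutation test gave p = 1.0.

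The ligand Edn1 was set against the genes that process and receive it. Ece1 minus Edn1 was 2.92, 3.17, 3.41 and 3.36 in sham replicates 1 to 4 and 1.99, 2.90 and 1.63 in MI replicates 1 to 3. All MI hearts were below all sham hearts, by 1.04 in the mean (exact permutation p = 0.0571, the smallest possible). Under quantile normalization the exact permutation p was 0.114. Edn1 minus Ednra was 1.15 higher in the MI mice and Edn1 minus Ednrb was 1.13 higher, but in both the value of MI replicate 2 lay within the sham range and the exact permutation p was 0.114. Over the 7 differences tested in this way, including the 3 against endothelial markers, 0.0571 is the smallest p that can occur, so none could pass 0.05.

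Edn1, Ednrb and Ece1 are typical of endothelial cells, and whole myocardium mixes many cell types. In such tissue fewer cells of a type and less RNA per cell cannot be told apart. The 12 endothelial markers, such as the vascular cadherin Cdh5 (log2 difference 0.06), had a median log2 difference of 0.19, close to the median gene, and their summed FPKM was 203.7 to 229.5 in the sham-operated mice and 264.5, 196.5 and 285.2 in MI replicates 1 to 3. That sum was higher in MI replicates 1 and 3 and below the sham range in MI replicate 2, and under median log-ratio scaling the median turned to -0.047. Among them the tight junction protein Cldn5 differed by 0.49, Egfl7 by 0.44 and Kdr, a VEGF receptor, by -0.20. Edn1 minus the mean of these markers was -2.65, -2.84, -3.0 and -2.95 in sham replicates 1 to 4 and -1.38, -2.47 and -1.06 in MI replicates 1 to 3. All MI hearts were above all sham hearts, by 1.23 in the mean (exact permutation p = 0.0571). Ece1 relative to the markers was higher by only 0.18, also without overlap (exact permutation p = 0.0571), with 0.265 to 0.415 in the sham-operated mice and 0.606, 0.428 and 0.570 in MI replicates 1 to 3. Ednrb relative to the markers differed by 0.09 with overlapping groups (exact permutation p = 0.629).

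**Figure D3:**
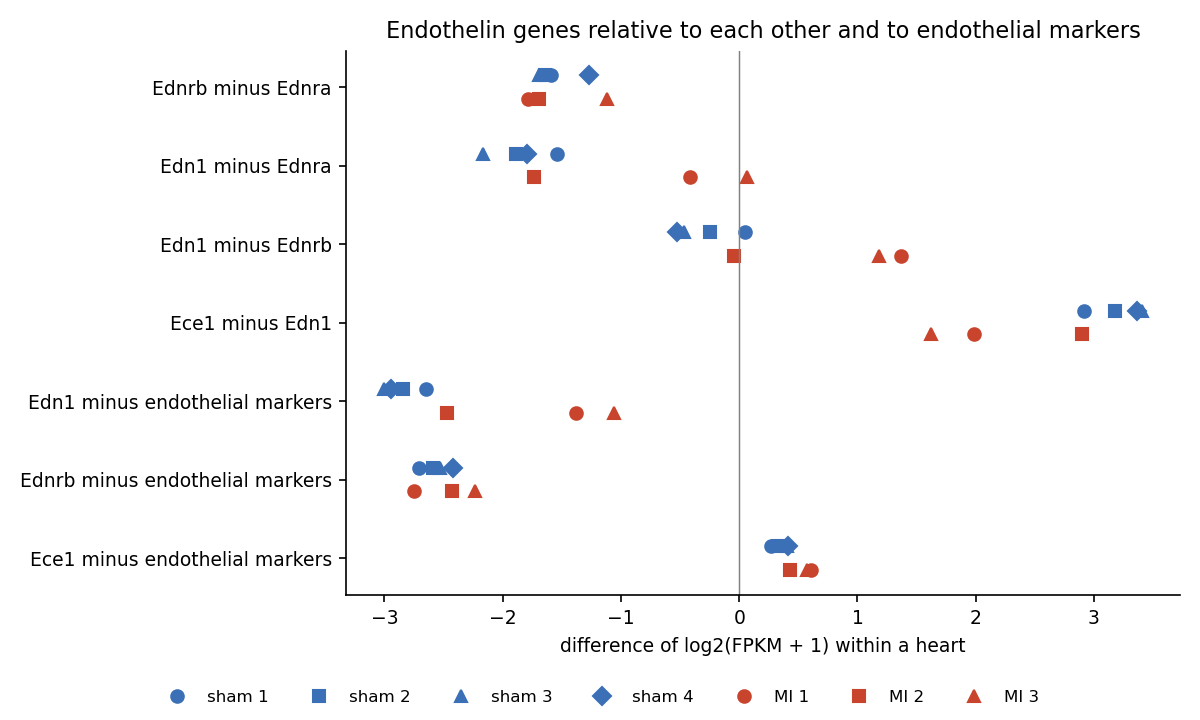
Differences within a heart on the log2(FPKM + 1) scale (horizontal axis) between endothelin genes, and between them and the mean of 12 endothelial markers, for each sham-operated (blue) and MI mouse (red). Edn1 relative to the markers ranges from -3.0 to -2.65 in the sham-operated mice and from -2.47 to -1.06 in the MI mice, while Ednrb minus Ednra overlaps between the groups.

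Markers of other cell types moved with the same hearts. The fibroblast sums above had a median log2 difference of 1.87, with 10 of 10 markers higher at an unadjusted p under 0.05, against 29.5% of all genes tested, among them periostin (Postn, 4.10) and type I collagen (Col1a1, 3.69). The sum of 10 macrophage and neutrophil markers was 114.6 to 152.3 in the sham-operated mice and 814.2, 139.8 and 704.4 in MI replicates 1 to 3, with 6 of the 6 tested higher at an unadjusted p under 0.05, against the same 29.5%, led by lysozyme (Lyz2, 1.75) and Cd14 (1.70). The sum of 10 cardiomyocyte markers was 14060 to 15350 and 9345, 14140 and 9940, with the largest differences in cardiac troponin I (Tnni3, -0.93) and the ventricular light chain Myl2 (-0.75). Thus the hearts with the highest Edn1, Ece1 and Ece2 also had the highest fibroblast and myeloid sums and the lowest cardiomyocyte sums, and the part of these shifts in the endothelin values was not tested.

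Mesothelial markers belong to the cells that line the surface of the heart. Their summed FPKM was 4.21 to 9.82 in the sham-operated mice and 29.7, 21.3 and 44.0 in MI replicates 1 to 3, so MI replicate 2 was above all sham-operated mice here, as it was in the fibroblast sum. All 5 tested markers lay above all sham values in all MI mice, against 16.1% of all genes tested, with a median log2 difference of 1.65, and Upk1b (1.85) and mesothelin (Msln, 1.77) differed most. Below the filter, Muc16 did the same, but Wt1 did not. Wt1 was at 0.451 in MI replicate 2, under the sham range of 0.481 to 0.640, and at 1.21 and 1.07 in MI replicates 1 and 3. Edn3 was also above all sham values in every MI heart, and the part of mesothelial cells in its level was not tested. Of 7 Schwann cell and neural crest markers only Erbb3, a neuregulin receptor, passed the filter, at a log2 difference of -0.29, and Sox10, their defining transcription factor, had an FPKM of 0.221 ± 0.0685 (SD, n = 4) and 0.236 ± 0.0162 (SD, n = 3).

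Smooth muscle and pericyte markers, typical of cells that carry receptor A, had 3 of 10 tested genes higher and 3 lower at an unadjusted p under 0.05, where 29.5% and 9.85% of all genes tested were. Transgelin (Tagln) differed by 1.63 and desmin (Des) by 0.72. Abcc9 and Kcnj8, which encode potassium channel subunits, differed by -0.86 and -0.28. Abcc9 was at 43.0 to 47.3 in the sham-operated mice and at 17.7, 42.6 and 19.0 in MI replicates 1 to 3. It was thus lowest in the hearts with the lowest cardiomyocyte sums, and which cells it came from was not tested. The sum of the smooth muscle and pericyte markers was 543.2 to 594.6 in the sham-operated mice and 1004, 573.0 and 1181 in MI replicates 1 to 3. Desmin held most of this sum, at 360.3 to 391.9 in the sham-operated mice and 724.1, 401.6 and 859.6 in the MI mice. The sum therefore mainly followed that gene. Lymphatic markers had 3 of 5 higher and 1 lower at the same threshold, against the same shares of all genes, with Pdpn at 2.03, Ccl21a at 1.29 and Prox1, the transcription factor that defines these vessels, at -0.51. Among 9 tested markers of endocardial, venous or arterial endothelium 4 were higher at an unadjusted p under 0.05, against 29.5% of all genes tested, with Plvap, a protein of fenestrated endothelium, at 2.41 and Gja4, an arterial gap junction protein, at 0.88.

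The genes that act before and after the endothelins were described from 5 lists of 69 genes, of which 55 passed the filter. At an adjusted p of 0.05 limma called 0 of them, as did voom, and at an unadjusted p under 0.05 limma had 25 higher and 1 lower, where 29.5% and 9.85% of all genes tested were. All MI values lay above all sham values for 15 and below for 2, against 16.1% and 9.0% of all genes tested. Without MI replicate 2 the adjusted calls were 39 higher and 4 lower of 55, in a fit that called 57.0% of all genes tested higher and 14.7% lower.

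Among the proteases, the first cut of the precursor is made by furin and related convertases. Furin had an FPKM of 7.55, 7.66, 7.81 and 7.76 in sham replicates 1 to 4 and 9.62, 8.46 and 10.2 in MI replicates 1 to 3, without overlap, and a log2 difference of 0.26 (adjusted p 0.109 in limma). Pcsk6 differed by 0.20 and Pcsk7 by 0.11, and Pcsk5, below the filter, was at 0.205 ± 0.0187 (SD, n = 4) and 0.676 ± 0.378 (SD, n = 3). These convertases stayed near the median gene, apart from Pcsk5. Mmp2, a gelatinase of fibroblasts that can also cut big endothelin, was at 17.0, 13.6, 15.1 and 13.4 in the sham-operated mice and at 136, 19.1 and 109 in MI replicates 1 to 3, a log2 difference of 2.09 (adjusted p 0.108 in limma). The mast cell chymase Cma1 had a mean of 0.649 and 1.54 with overlapping groups, and Kel was at 0 in all but 1 heart.

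For removal of the peptide, Mme, the neprilysin that degrades endothelins, was lower in the mean of the MI mice, as was only Edn2 among the other genes of its list. Its FPKM was 0.774, 0.604, 0.652 and 0.889 in sham replicates 1 to 4 and 0.422, 0.636 and 0.412 in MI replicates 1 to 3. MI replicates 1 and 3 were below every sham-operated heart and MI replicate 2 was within their range, and the gene stayed under an FPKM of 1 in all mice and was not tested. Ctsa, a lysosomal carboxypeptidase that also inactivates endothelin-1, had a mean of 10.6 ± 0.427 (SD, n = 4) and 18.6 ± 6.12 (SD, n = 3), with a log2 difference of 0.70 and no overlap. The neprilysin relatives Mmel1 and Ecel1 stayed at or below 0.124 in every heart.

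Downstream of the receptors, 19 of 24 genes of G protein and calcium signalling were tested. Of them 11 were higher and 1 lower at an unadjusted p under 0.05, against 29.5% and 9.85% of all genes tested, with a median log2 difference of 0.30. Prkcd, a protein kinase C, had the largest increase, 1.13, but MI replicate 2 at 1.44 was below all sham hearts. Gnai3, an inhibitory G protein subunit, differed by 1.00 without overlap. Gna12, a G protein subunit, differed by -0.20 and did not reach an unadjusted p of 0.05 (0.0515 in limma). It was lower in all MI hearts, with 41.2 to 44.2 in the sham-operated mice against 35.9, 38.2 and 36.1 in MI replicates 1 to 3. In Gnaq, the subunit most directly coupled to receptor A, the difference was 0.52 with MI replicate 2, at 4.84, inside the sham range.

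Genes that switch receptors off had a median log2 difference of 0.46, with 5 of 10 higher at an unadjusted p under 0.05, against 29.5% of all genes tested. Arrb2, a beta-arrestin, differed by 1.10 and Grk5, a kinase that phosphorylates receptors, by 0.84, both without overlap. Rgs2 and Rgs5, which shorten Gq signals in vessels, were at -0.19 and -0.03.

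The relaxing side of the endothelium had 4 of 9 tested genes higher at an unadjusted p under 0.05, against 29.5% of all genes tested, and a median log2 difference of 0.43. Ptgis, prostacyclin synthase, had an FPKM of 5.28, 5.13, 4.79 and 6.52 in sham replicates 1 to 4 and 54.1, 8.19 and 46.5 in MI replicates 1 to 3, so that even MI replicate 2 was above all sham hearts. Its log2 difference was 2.17 and that of Ptgs1, a cyclooxygenase, 0.95. The subunits of soluble guanylate cyclase, the receptor of nitric oxide, were higher by 0.93 (Gucy1a1) and 0.74 (Gucy1b1) without overlap. Nos3, endothelial nitric oxide synthase, was at 11.4 ± 0.685 (SD, n = 4) and 12.8 ± 2.74 (SD, n = 3), a difference of 0.14 with MI replicate 2 below all sham hearts.

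Of 12 regulators of Edn1 transcription, Hif1a, the oxygen-regulated factor, and Foxo1 were the 2 higher at an unadjusted p under 0.05, against 29.5% of all genes tested, and the median log2 difference was 0.33. Hif1a differed by 0.94 with MI replicate 2 inside the sham range, and Foxo1, named here after its values were seen, by 0.42 without overlap. Fos, a subunit of AP-1, had a log2 difference of 1.12 that did not reach an unadjusted p of 0.05, with MI replicate 2 below all sham hearts. Agt, the angiotensin precursor, and Klf4 differed by -0.06 and -0.05.

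**Figure D4:**
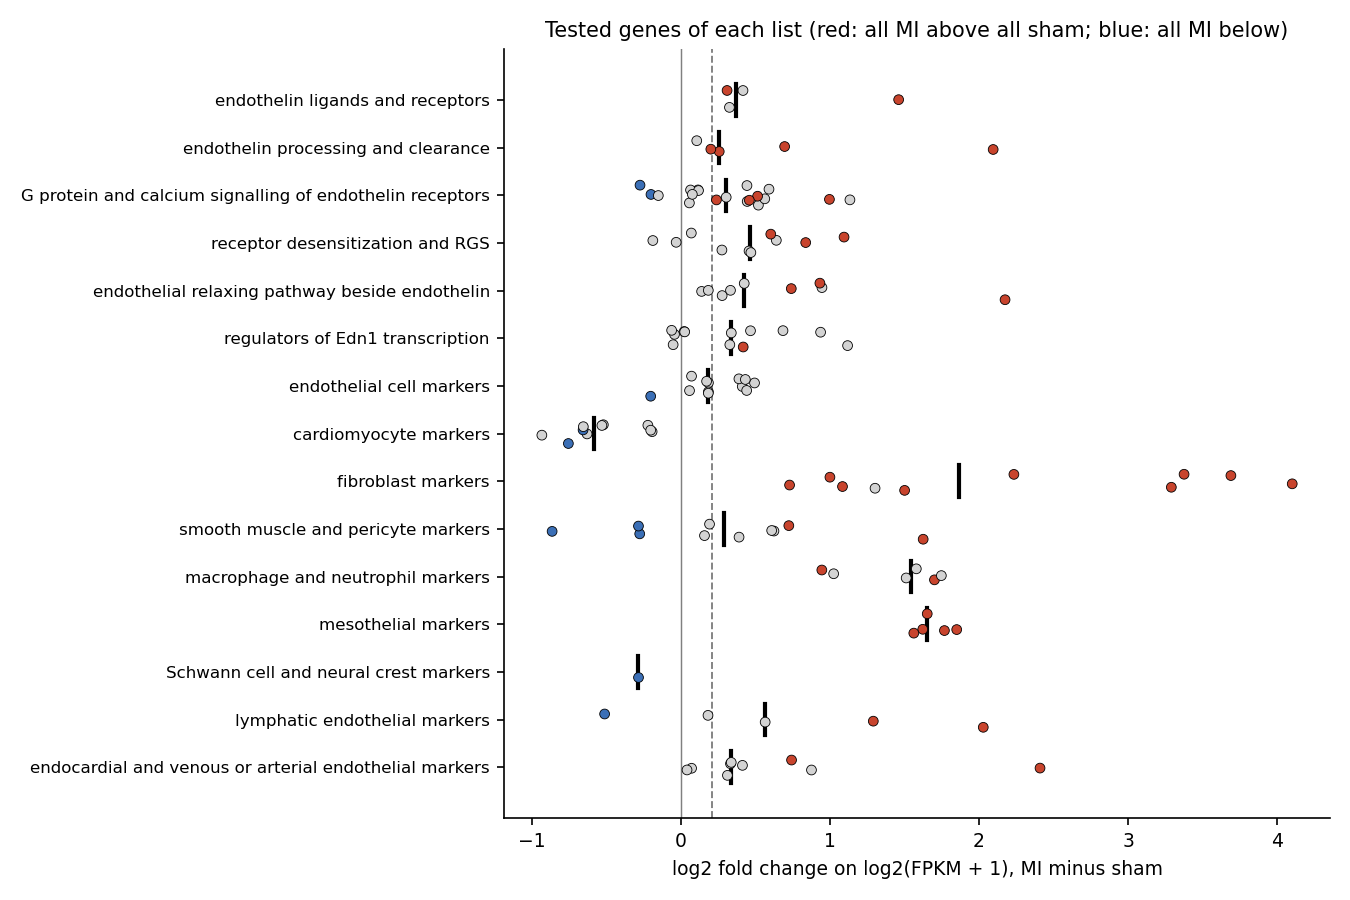
Log2 difference between MI and sham-operated mice (horizontal axis) for each tested gene of 15 lists, with a black bar for the median of a list, a solid line at 0 and a dashed line at the median of all genes tested, 0.21. Red points have all MI above all sham values and blue points all MI below, and the 5 mesothelial markers are all red while the 10 cardiomyocyte markers all lie below 0.

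The genes most like each endothelin gene across the 7 hearts were taken by Pearson's r of log2(FPKM + 1), as a description in which the large gap between MI replicates 1 and 3 and the other hearts weighs heavily. Edn1 was closest to Arhgef10 (0.999), Prss23 (0.996) and Itprid2 (0.996), and 2039 genes exceeded 0.95. Ece1 was closest to Cyp2d22, Zfp36l2 and Myl9 (all 0.999), and 3082 genes exceeded 0.95. The receptors had far fewer such genes, 36 for Ednra, led by Gm12928 (0.992), Wrnip1 (0.985) and Tmem164 (0.983), and 17 for Ednrb, led by She (0.975), Eif3f (0.974) and Rab11b (0.970). Within the system, r was 0.97 between Edn1 and Ece1 and 0.51 between the receptors.

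For Edn1, Ece1 and Ednrb the spread between the 3 MI hearts was wider than that between the sham-operated hearts, which was not so for Ednra. Counting strand was not given in the sources used here, and short overlaps on the opposite strand, 35 bases for Edn1 and 91 for Ednra, could not be separated.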

How the data were processed

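The authors deposited 1 table of FPKM values for 56980 Ensembl genes in 7 mice, not pooled, and all its sample columns were used. The submitters' processing notes list the build mm10 and the tools CASAVA 1.8, HISAT2, SAMtools 1.3.1 and edgeR without their roles. The annotation, the counter and its strand setting are not given in the sources used here. Symbols and positions came from GENCODE M21 on GRCm38 (52073 identifiers, 91.4%). FPKM values depend on the library total, so genes that take a large share, such as those of mitochondria, move all others.

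Groups were taken from the labels. Each library was taken as 1 mouse. Whole fragments were recovered within 0.05 of a whole number for 30448 genes outside mitochondria, of 30504 above 0, and the 37 mitochondrial genes were converted by annotated length. Intervals were not computed, since the spread between mice exceeds the counting error.

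Genes that reached an FPKM of 1 in 3 or more mice were analysed as log2(FPKM + 1) with limma 3.58.1 (lmFit, eBayes with trend, two-sided) in R 4.3.3, adjusted by Benjamini-Hochberg over 11431 genes. Exact two-sided permutation tests used all 35 splits. Other steps used Python 3.11.15 and pandas 2.3.3. The recovery of fragments and the limma fit were tested on simulated data. For limma both groups had the spread of the sham-operated mice, so the wider spread of MI mice for Edn1, Ece1 and Ednrb was not covered. Alternatives were another pseudocount, lower or no filters, 4 scalings, no trend, sample weights, voom, a replicate block and each mouse left out. Subtracting the median gene, and counts without MI replicate 2, were added after seeing the data.

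The endothelin genes and all lists were chosen with earlier results of these data known. Genes were named by rule: the 6 endothelin genes, the processing and clearance list, the 2 largest increases and decreases of each other list, the 3 genes most like each tested endothelin gene, and Myh6 and Tnnt2. A gene that this rule selects is not reported here. Cdh5, Gnaq, Gucy1a1, Gucy1b1, Nos3, Sox10, Wt1, Muc16, Foxo1 and Gm49333 were named outside this rule, after their values were seen. The mature peptide stretches were located by the cysteine spacing and final tryptophan of a mature endothelin. They were read from the GRCm38 genome at GENCODE coding positions.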

Additional observations from a re-analysis of the deposited data

Results flagged for a closer look

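Edn2 in the sham-operated mice was flagged because 1 heart lay far from the others. Sham replicate 4 had an FPKM of 0.103 from 3 fragments and the other 3 had 0, so the gap took up the whole range (ratio of gap to range 1.0). It was 1 of 14 sets of values examined. With 3 values at 0 the ratio is 1.0 for any other value above 0, so the flag carries no weight. The usual rate of about 1 flag in 20 by chance does not apply to such values. At 3 fragments the value is at the limit of detection.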

How the results depend on the processing

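Of the values that answer a comparison, 172 counted as unchanged, 8 passed the threshold, 7 moved and 5 changed sign. Unchanged mostly meant the same direction and side of 0.05, whatever the size. Ednra, for one, fell from 0.31 to 0.03 under quantile normalization and counted as unchanged. The exact permutation tests could not pass 0.05 in any setting, so they could not change side. For Edn3 and Ece2 unchanged mostly meant a shift smaller than the SD between mice. With sample weights, limma's log2 difference was 2.24 for Edn1 (adjusted p 6.75e-08), 0.31 for Ednra (0.000236), 0.76 for Ednrb (1.14e-06) and 0.65 for Ece1 (1.97e-07), but the weight of MI replicate 3 was 437 against 0.0906 and 0.0217 for the other MI mice. Leaving out 1 mouse at a time gave 1.07 to 2.03 for Edn1, 0.25 to 0.36 for Ednra, 0.11 to 0.46 for Ednrb and 0.30 to 0.63 for Ece1. All 4 passed without MI replicate 2 (adjusted p 5.04e-05, 0.0107, 0.0332 and 7.78e-05 in limma), as did 7636 higher genes with weights and 6512 without that mouse. Pathway genes called ranged from 0 to 39 higher and 0 to 4 lower, with 39 and 4 without MI replicate 2 and 0 in the other settings run for these lists, which did not include sample weights. Edn3 differed by 0.22 and moved to 0.93 with a pseudocount of 0.1, 0.48 as TPM and 0.11 with quantile normalization. Ece2, at 0.67, moved to 2.04 and 1.22 with the first 2 of these. Ednrb minus Ednra, 0.02, turned to -0.0095 with quantile normalization and ran from -0.19 to 0.14 with 1 mouse left out. With 1 mouse left out, Ednrb minus endothelial markers ran from -0.027 to 0.23 and Ednrb relative to the median gene from -0.057 to 0.27, both lowest without MI replicate 3, and the latter was 0.47 with sample weights. The endothelial marker median was -0.047 under median log-ratio scaling. The cause was not tested.

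Mice with the same replicate number did not deviate together (correlations 0.074, -0.016 and -0.08), so they share only a number. With the replicate block the log2 differences were 1.42 for Edn1, 0.25 for Ednra, 0.36 for Ednrb and 0.43 for Ece1, with adjusted p 0.240, 0.296, 0.256 and 0.241 in limma and 0 genes called of all tested. Edn3, Ece2 and Edn2 rest on few fragments, which limits what can be said of them.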
